A study of Mus musculus with 6 samples.

Results

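The response of the heart to ginsenoside Rh2 was taken from 4 libraries with Rh2 (Rh2-20, Rh2-30, Rh2-20+Dox and Rh2-30+Dox) set against 2 libraries without it (Control and Dox), out of 6 libraries in all. Doxorubicin was a blocking term, so that each library with Rh2 was read against the library without Rh2 of the same doxorubicin state. Every library was RNA of 5 pooled hearts from BALB/c nude mice (CAnN.Cg-Foxn1nu/Crl), aged 6 weeks at the start of the experiment. All mice carried MDA-MB-231 human breast cancer cells under the skin from day 0 and were treated for 3 weeks from day 7. The mice of Control and Dox received no Rh2, those of Rh2-20 and Rh2-20+Dox received 20 mg/kg and those of Rh2-30 and Rh2-30+Dox received 30 mg/kg, injected daily. Dox, Rh2-20+Dox and Rh2-30+Dox also received doxorubicin at 2 mg/kg on alternate days to a cumulative 22 mg/kg. Nude mice lack a thymus, so all 6 groups share a host with few mature T cells, and all 6 share the tumour. Each condition has 1 library, so the 4 libraries with Rh2 differ in dose and are not true replicates. The spread behind each test comes from the dose difference and from how far the Rh2 effect differed with and without doxorubicin. Comparisons within a doxorubicin state share their reference library, and the states share none.

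Ginsenoside Rh2 is a steroid-like saponin of ginseng, and doxorubicin is an anthracycline that blocks topoisomerase II and is known for damage to the heart. Type I interferons signal through JAK kinases to a transcription factor complex that holds STAT2 and IRF9 and binds the interferon-stimulated response element (ISRE), and interferon gamma is the main inducer of guanylate-binding proteins and of antigen presentation genes. Glucocorticoids bind a nuclear receptor that switches on genes such as Tsc22d3 (GILZ) and Fkbp5 and is known to hold inflammatory genes down.

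The libraries held 86164411 to 90621002 counts, with TMM factors of 0.959 to 1.08, and 18328 of 45777 genes had a mean count of at least 10 and were tested. Levels are given as CPM, read counts scaled to library size with TMM factors, and differences as log2 fold changes with 95% intervals. No gene reached an adjusted p under 0.05 in edgeR's quasi-likelihood test with the doxorubicin term (0% of those tested, smallest adjusted p 0.381), while 1602 had an unadjusted p under 0.05. DESeq2's Wald test on the same design called 247 genes (105 higher, 142 lower) and limma-voom called 0, with 1529 at an unadjusted p under 0.05. The count of calls therefore rests on the tool. Each adjusted p below is edgeR's with Benjamini-Hochberg adjustment over all genes tested unless DESeq2 is named, and counts of list members use its unadjusted p under 0.05. The gene lists were chosen with earlier results of these data known. Their counts beside the all-gene shares are therefore descriptions and not independent support. Permuting Rh2 within the doxorubicin states allows 9 arrangements, so an exact two-sided test of a single gene cannot go below 0.111. At the study's cut-offs (fold change of at least 2 and unadjusted p under 0.05) 118 genes were higher with Rh2 (0.644% of those tested) and 59 were lower (0.322%). With library totals in place of TMM the split was 142 to 41. The split also turned on single libraries, at 141 higher and 177 lower without Control, 101 and 104 without Rh2-30, and 204 and 38 without Dox, and it was 6 and 12 on log2(FPKM + 1). A gene was higher in both libraries with Rh2 of both doxorubicin states in 2933 cases (16%) and lower in 2976 (16.2%), and with library totals in 4312 and 1822 cases.

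The tissue markers were checked first, because single libraries stood apart. The 9 ventricular cardiomyocyte markers summed to 20388 to 28184 CPM in the 4 libraries with Rh2 and to 26063 and 26102 in the 2 without, the largest sum of any marker list in each library. The 7 atrial markers summed to 80.9 CPM in Control, 93.5 in Rh2-20, 1790 in Rh2-30, 425 in Dox, 532 in Rh2-20+Dox and 110 in Rh2-30+Dox. White fat markers were also highest in Rh2-30, at 519 CPM against 128 to 231 in the other libraries. Red cell markers were highest in Dox, at 10560 CPM against 1660 to 5922 in the others, and platelet markers were high in Dox (132 CPM) and Rh2-20+Dox (195 CPM) against 17.6 to 40.1 elsewhere. Of the 11 T cell markers, Cd3d and Cd8b1 were at 0 in all 6 libraries, and the list summed to 3.71 to 9.25 CPM. In bulk tissue, fewer cells of a type and less RNA per cell cannot be told apart.

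**Figure D1:**
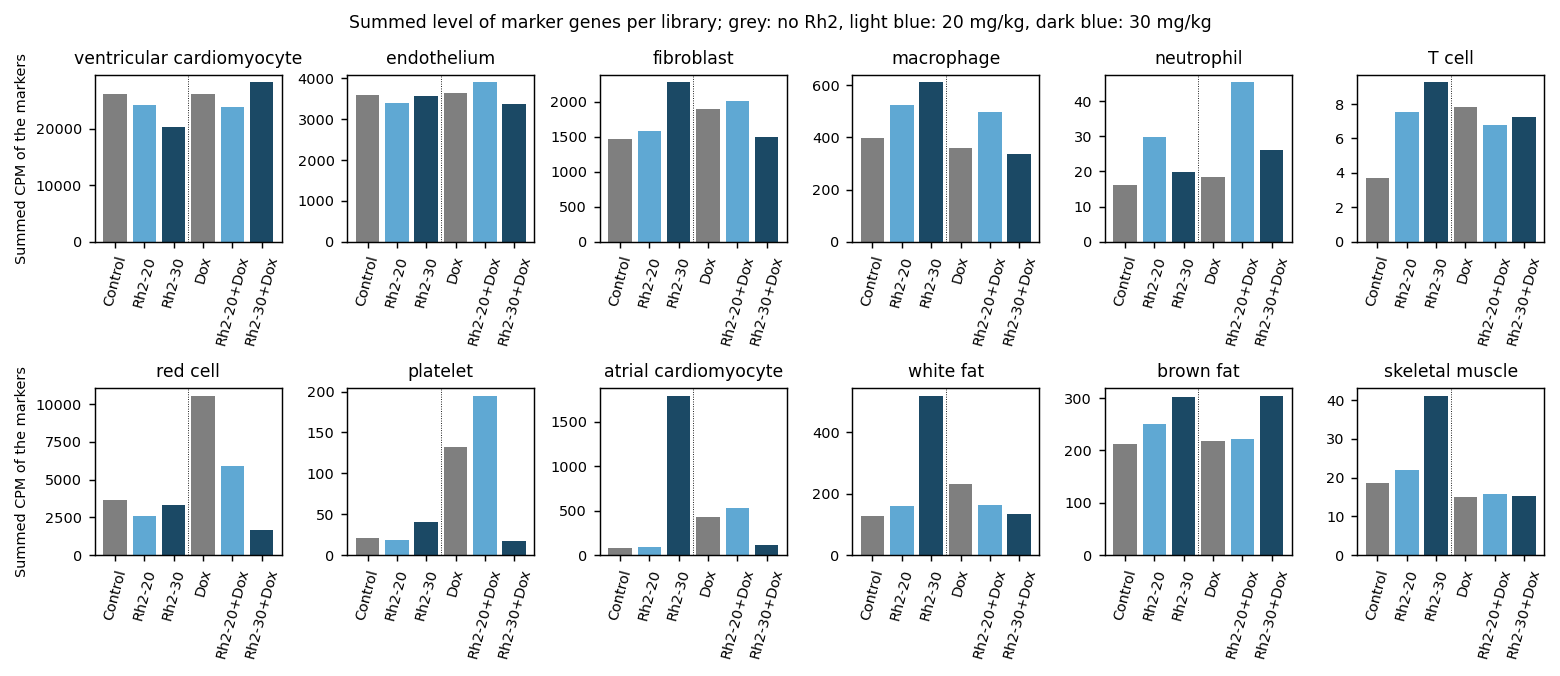
Summed CPM of the marker genes of 12 cell types and tissues (y axis) in each of the 6 libraries (x axis, 1 bar per library of 5 pooled hearts), with no error bars because no condition has a second library. The Rh2-30 library has the tallest atrial (1790 CPM) and white fat (519 CPM) bars, and the Dox library the tallest red cell bar (10560 CPM).

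The naming rule took genes past the study's cut-offs by smallest p. It put Ifi205, Ddit4, Slc10a6, Fam107a and Jaml first on the higher side and Mnd1, H2-Q5 and Gbp5 first on the lower side. Some genes below the 2-fold cut-off, such as Ifi207 and Ddx60, had a smaller p than Gbp5 and are given further on. The 24 genes named, 12 per direction, had the smallest p past the study's cut-offs and the same direction in all 4 pairs. Of these, 22 had groups of libraries without overlap and 21 had a DESeq2 adjusted p under 0.05. Both counts come from the libraries that picked the genes, so they describe the genes and are not independent support. Ifi205, a DNA-binding protein of the interferon-inducible Ifi200 family on chromosome 1 (174011998 to 174031755, GRCm38), measured 15.8 CPM in Control, 33.4 in Rh2-20 and 35.1 in Rh2-30. With doxorubicin it measured 19.9 CPM in Dox, 37.5 in Rh2-20+Dox and 36.6 in Rh2-30+Dox. All 4 libraries with Rh2 lay above both without it, at a log2 fold change of 1.0 (95% interval 0.78 to 1.23, adjusted p = 0.381). Across all genes tested, 9.87% lay above and 9.08% lay below in this way. Ddit4, the stress-induced inhibitor of mTORC1, measured 8.93 CPM in Control, 18.0 in Rh2-20 and 17.9 in Rh2-30, and 8.17 in Dox, 17.5 in Rh2-20+Dox and 20.3 in Rh2-30+Dox. Its groups did not overlap either, and Control and Dox were the lowest libraries by a wide margin (1.11 on the log2 scale, 0.83 to 1.39, adjusted p = 0.381).

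Slc10a6, a sodium-dependent transporter of sulphated steroids, measured 3.77 CPM in Control, 7.96 in Rh2-20 and 8.44 in Rh2-30. In the doxorubicin state it read 5.72 CPM in Dox, 14.0 in Rh2-20+Dox and 17.4 in Rh2-30+Dox, a log2 fold change of 1.29 overall. Fam107a, an actin-associated stress protein, measured 2.24, 5.70 and 5.24 CPM in Control, Rh2-20 and Rh2-30 and 3.34, 7.18 and 8.88 CPM in Dox, Rh2-20+Dox and Rh2-30+Dox. For both genes the lowest library with Rh2 exceeded the higher library without it. Penk, which encodes the enkephalin precursor, had a log2 fold change of 1.10 and Jaml, a junctional adhesion protein of leukocytes, one of 1.35. Serpina3n, an acute-phase protease inhibitor, measured 15.3 and 21.7 CPM in Control and Dox and 33.2 to 69.6 CPM with Rh2 (1.35, 0.59 to 2.11). The other genes of this group with fewer counts were Zdhhc23 (1.88), a palmitoyltransferase, Dhrs9 (1.51), a short-chain dehydrogenase, and H2al1m (1.42), an H2A histone variant of a multicopy family that overlaps Xk. These 8 genes had groups without overlap, and DESeq2 called each of them at an adjusted p under 0.05 except Dhrs9. Jaml overlaps Gm10684 and Dhrs9 overlaps Gm36393, and whether the counting used strand is not given in the sources used here.

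On the lower side Mnd1, which acts in strand exchange during meiosis, showed the widest gap. It measured 21.8 CPM in Control and 23.4 in Dox against 2.13 in Rh2-20, 4.60 in Rh2-30, 2.95 in Rh2-20+Dox and 1.84 in Rh2-30+Dox. That is 1815 and 1968 counts without Rh2 and 160 to 436 with it, a log2 fold change of -3.0 (-3.85 to -2.14, adjusted p = 0.381). The gene lies on chromosome 3 (84087933 to 84155798) and no other RefSeq gene overlaps it. Ermap, an erythroblast membrane protein, measured 1.12 and 1.14 CPM in Control and Dox and 0.184 to 0.466 with Rh2 (-1.90). Its libraries held 16 to 96 counts, and the 7 red cell markers summed to 3630 and 10560 CPM without Rh2 and to 1660 to 5922 CPM with it, with overlap. The part of red cells in the Ermap difference was not tested. Madd, a Rab guanine exchange factor named here after its values were seen, met the same cut-offs through 1 library alone, with 202 CPM in Control against 45.1 to 53.6 CPM in all the others.

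**Figure D2:**
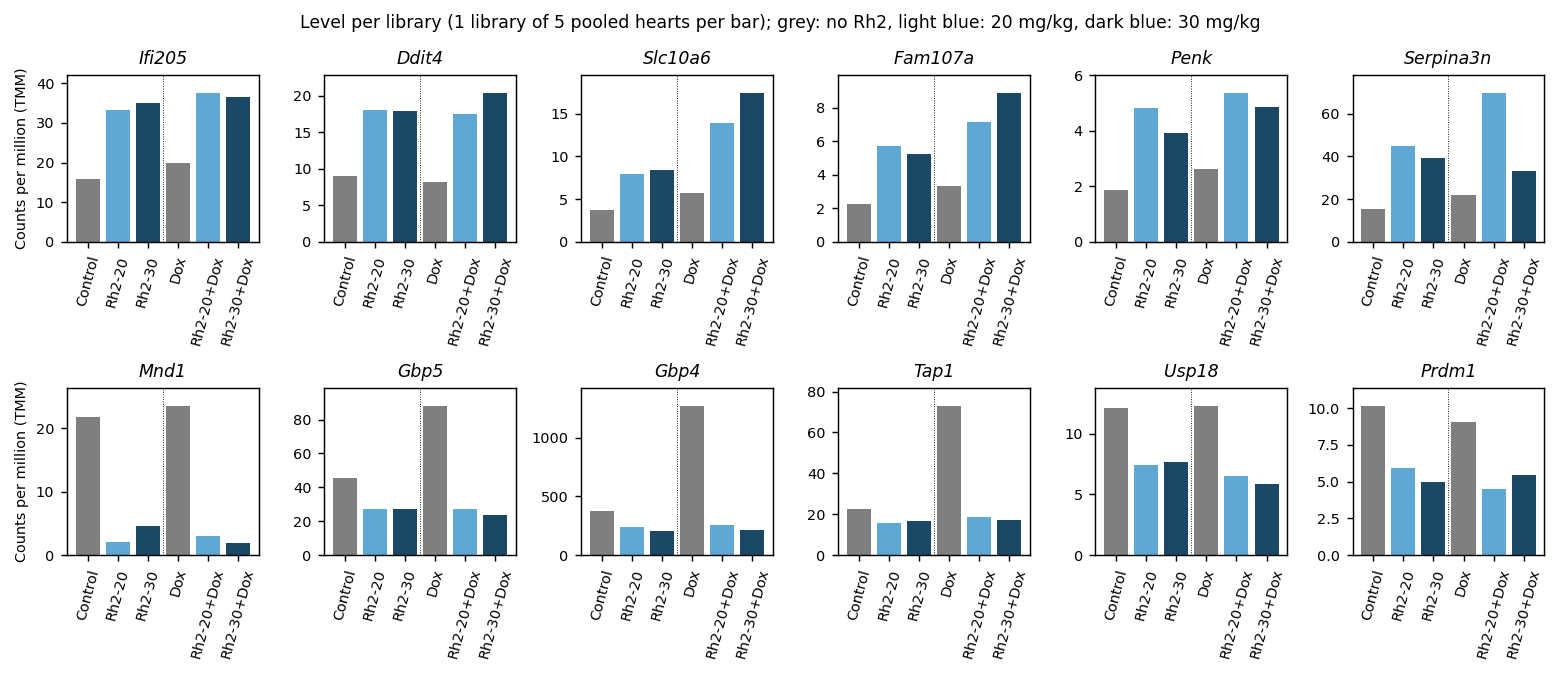
CPM after TMM scaling (y axis, from 0) of 12 named genes in the 6 libraries (x axis, 1 bar per library, no error bars because there is 1 library per condition). In the top row all 4 bars with Rh2 exceed both grey bars without it, and in the bottom row all 4 lie below, with the grey Dox bar above the grey Control bar for Gbp5, Gbp4 and Tap1.

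Most type I interferon response genes were lower with Rh2 in both doxorubicin states. Of 41 tested members of the type I interferon list, 24 were lower at an unadjusted p under 0.05 and none higher, against 4.65% lower and 4.09% higher over all genes tested. In all 4 pairs 33 members were lower (16.2% of all genes) and none was higher. For 24 members all libraries with Rh2 lay below both without (9.08% of all genes). The median log2 fold change was -0.49, with -0.34 without doxorubicin and -0.60 with it, beside 0.01 over all genes. By pair the medians were -0.37 for Rh2-20 and -0.29 for Rh2-30 against Control, and -0.39 for Rh2-20+Dox and -0.85 for Rh2-30+Dox against Dox. Only 1 member, Zbp1, met the cut-off of a 2-fold change.

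The type I list members with the smallest p were Ddx60, Usp18, Stat2 and Mx2. Ddx60, a helicase that aids RNA sensing, measured 208 CPM in Control and 211 in Dox against 140, 131, 122 and 107 in Rh2-20, Rh2-30, Rh2-20+Dox and Rh2-30+Dox. Its level without Rh2 was thus nearly the same in both doxorubicin states (-0.75, -1.0 to -0.50, adjusted p = 0.492; DESeq2 adjusted p = 5.11e-08). Usp18, the protease that removes ISG15 and damps receptor signalling, measured 12.1 CPM in Control and 12.3 in Dox and 5.86 to 7.64 CPM with Rh2 (-0.84). Stat2, the type I interferon transcription factor subunit, measured 106 and 140 CPM without Rh2 and 70.3 to 77.4 CPM with it (-0.73). Mx2, an Mx family GTPase gene annotated as a transcribed pseudogene, was highest in Control at 36.4 CPM, followed by Dox at 25.6, and lay at 16.3 to 20.5 CPM with Rh2 (-0.76). Zbp1, a sensor of Z-form nucleic acid, measured 5.45 and 7.97 CPM without Rh2 and 2.01 to 3.62 with it (-1.14). In this list Control was the highest of the 6 libraries for 20 members and Dox for 17. The share of all genes tested with either library highest was not counted, here or for the lists below.

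Ligand genes were hardly read. Of 17 interferon genes looked up, 8 had no count in any library, among them Ifnb1 and Ifng, and the largest count of any of them in 1 library was 7. A count of 0 allows up to 3 counts, 0.0316 to 0.0360 CPM in these libraries, with counting error alone covered. The receptor chains were looked at after the list values were seen. Ifnar1, a chain of the type I receptor, measured 45.0 and 44.9 CPM in Control and Dox and 36.0 to 41.8 with Rh2 (-0.23, adjusted p = 0.568), but the deposited FPKM values put it on the other side, at 0.17 with a pseudocount of 1. Ifngr1, a chain of the interferon gamma receptor, was higher with Rh2, at 73.2 to 89.8 CPM against 69.9 and 57.7 (0.32, adjusted p = 0.567), while Ifnar2 (-0.13, adjusted p = 0.691) and Ifngr2 (0.19, adjusted p = 0.664) had intervals that spanned 0.

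The interferon gamma GTPases and their companions split by doxorubicin state. Of 19 tested members 15 were lower at p under 0.05 (4.65% of all genes) and none higher, and 13 were lower in all 4 pairs (16.2%). The study's cut-offs were met by 10, all lower (0.322% of all genes), and 10 had all libraries with Rh2 below both without (9.08%). The median was -1.13, made of -0.29 without doxorubicin and -1.87 with it. For 14 members the interaction of Rh2 with doxorubicin had an unadjusted p under 0.05, against 2.71% of all genes tested. No gene passed the adjusted threshold in edgeR's interaction test (smallest adjusted p 0.307, 497 at an unadjusted p under 0.05), and DESeq2 called 38. The Dox library was the highest of the 6 for 18 members. Gbp4, a guanylate-binding protein, measured 372 CPM in Control, 237 in Rh2-20 and 206 in Rh2-30, and 1265 in Dox, 254 in Rh2-20+Dox and 212 in Rh2-30+Dox. Levels with Rh2 were thus alike in both doxorubicin states, and the size of the difference followed the reference library (-0.75 without doxorubicin, -2.44 with it, interaction adjusted p = 0.988).

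Gbp5, which promotes inflammasome assembly, measured 45.7 CPM in Control and 87.8 in Dox and 23.5 to 27.4 with Rh2 (-1.30, -1.87 to -0.73, adjusted p = 0.567). Gbp7 measured 73.0 and 182 CPM without Rh2 and 52.4 to 55.7 with it (-1.13), and Gbp9 293 and 414 CPM without and 170 to 200 with it (-0.91). Iigp1, an immunity-related GTPase that attacks vacuoles of intracellular parasites, measured 54.9 CPM in Control, 228 in Dox and 35.2 to 39.6 with Rh2 (-1.67). In these 4 genes each library with Rh2 lay below Control as well as below Dox. Tgtp1 with Tgtp2, and the Gbp genes among themselves, are close copies, so the counts of a single copy are uncertain.

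Antigen presentation genes were lower mainly in the doxorubicin state. Of 21 tested members 8 were lower at p under 0.05 (4.65% of all genes) and none higher. In all 4 pairs 7 were lower (16.2% of all genes), and 5 had all libraries with Rh2 below both without (9.08%). The median was -0.75, with -0.04 without doxorubicin and -1.38 with it, and the pair of Rh2-30 and Control had a median of 0.12. The interaction had an unadjusted p under 0.05 for 18 of the 21, against 2.71% of all genes tested. Tap1, a subunit of the peptide transporter, measured 22.4, 15.5 and 16.8 CPM in Control, Rh2-20 and Rh2-30 and 72.7, 18.9 and 17.3 CPM in Dox, Rh2-20+Dox and Rh2-30+Dox (-1.31). Nlrc5, the transactivator of MHC class I genes, measured 62.2 CPM in Control, 257 in Dox and 39.2 to 68.6 with Rh2 (-1.36), so that Rh2-30+Dox overlapped Control. Tap2 (-0.56) and the class I gene H2-Q4 (-0.93) were below both references in every library with Rh2. H2-Q5 (20.6 and 43.9 CPM without Rh2, 8.65 to 10.6 with it) and H2-Bl (30.9 and 59.9 CPM without, 19.9 to 21.4 with it) are class I loci annotated as transcribed pseudogenes, with near copies, and their values are uncertain for that reason. Cd274, the PD-L1 checkpoint ligand, measured 9.87 CPM in Control, 42.8 in Dox and 6.83 to 10.7 with Rh2 (-1.37), with Rh2-30+Dox above Control. Nlrc5 and Cd274 both overlap other RefSeq genes.

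**Figure D3:**
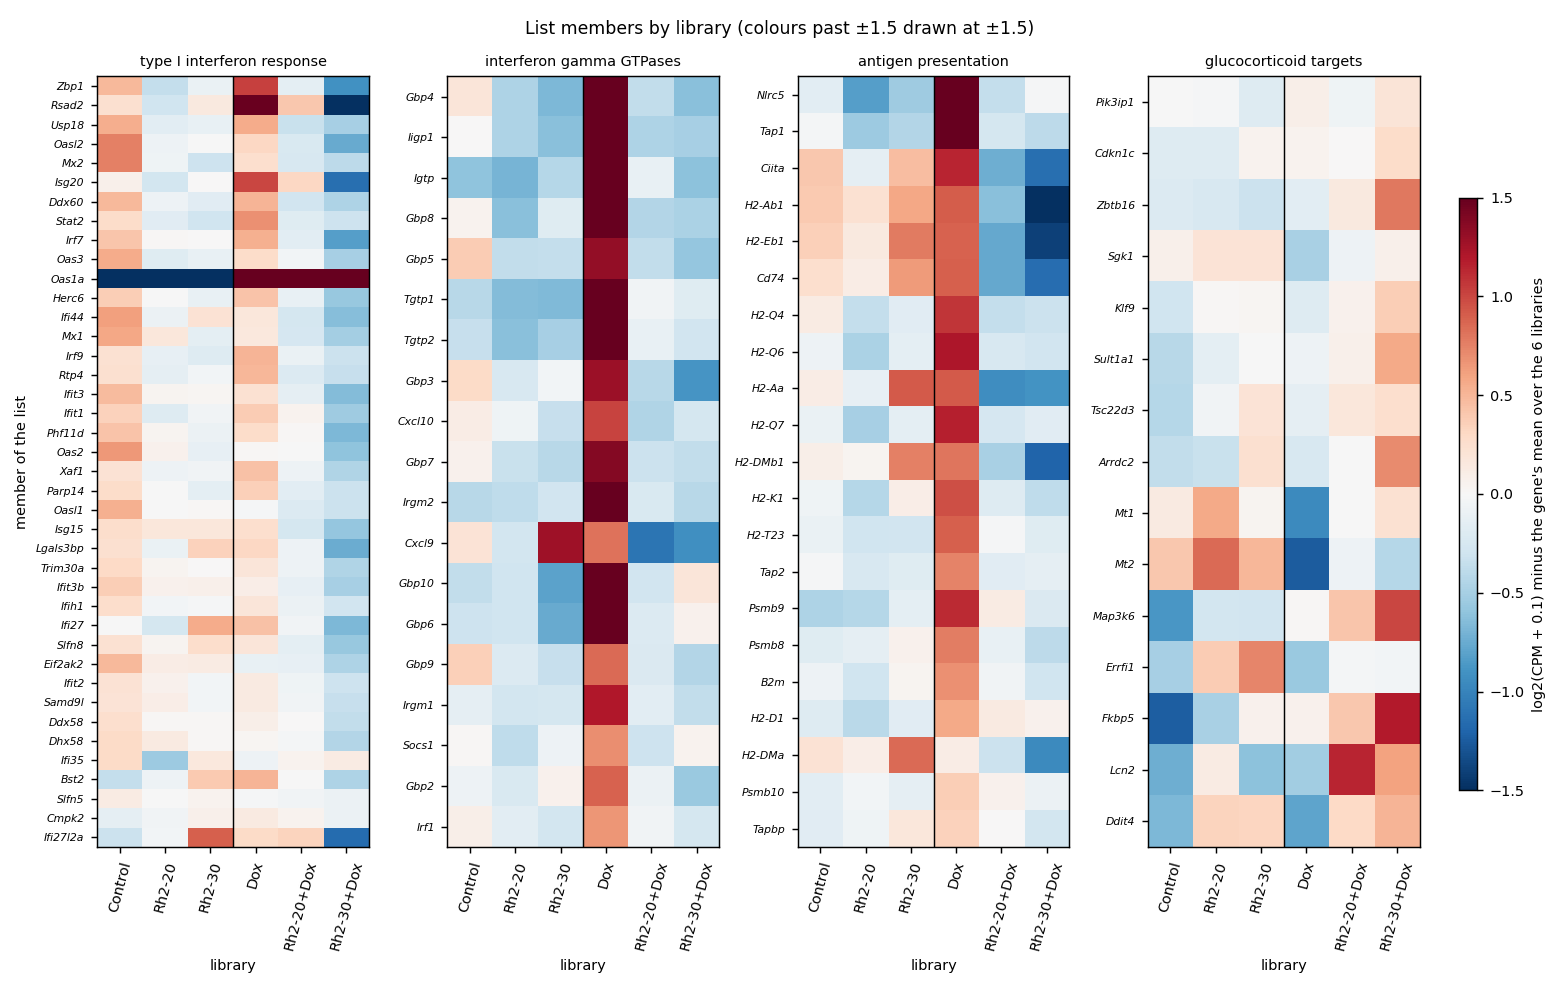
Level of tested members (rows) of the type I interferon, interferon gamma GTPase, antigen presentation and glucocorticoid target lists in the 6 libraries (columns), as log2(CPM + 0.1) minus the gene's mean over the 6 libraries (colour). The Dox library is the highest for 18 of 19 GTPase members and 20 of 21 antigen presentation members, while in the type I list Control is the highest for 20 and Dox for 17 of 41. The matching share over all genes was not counted.

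Leaving out 1 library moved these counts. Leaving out Control or Dox left 1 library without Rh2, so the Rh2 difference then came from 1 doxorubicin state alone. The type I, GTPase and antigen presentation lists had medians of -0.34, -0.29 and -0.04 without doxorubicin. With it the medians were -0.60, -1.87 and -1.38. Leaving out Rh2-20+Dox or Rh2-30+Dox left 8 GTPase members lower at p under 0.05 each time, and 4 or 5 antigen presentation members. Without Rh2-30, the library with atrial and fat transcripts, 20 type I, 16 GTPase and 15 antigen presentation members were lower at p under 0.05. With library totals in place of TMM, 15 type I members were lower. The 14 macrophage markers, of which none was at 0, summed to 397 and 358 CPM without Rh2 and 338 to 610 with it, and the 8 NK cell markers to 0.948 and 3.25 CPM without and 0.852 to 1.67 with it. The macrophage sum was above the reference in Rh2-20, Rh2-30 and Rh2-20+Dox and below both references in Rh2-30+Dox. The part of macrophages and NK cells in the interferon values was not tested.

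Promoters of the interferon lists were read for the ISRE core, although no member had passed the adjusted threshold. The letters searched were GAAANNGAAA on both strands, from 250 bases before to 50 bases after the RefSeq start (GRCm38.p6). They were in 3.87% of the promoters of 12805 tested genes with an entry, in 11 of 13 matched GTPase list members (84.6%), in 16 of 30 type I members (53.3%) and in 2 of 16 antigen presentation members (12.5%). Among matched members lower at p under 0.05 they were in 8 of 9 (88.9%), 8 of 16 (50%) and 1 of 5 (20%) in the same order. The lists were drawn up as interferon genes, so these shares describe the lists and not a response to Rh2. The windows of 4 GTPase list members show the match and its surroundings, each on the strand of its gene, with the match in capitals (as TTTCNNTTTC where it lies on the other strand).
Gbp5, chr3:142496744-142496803, plus strand: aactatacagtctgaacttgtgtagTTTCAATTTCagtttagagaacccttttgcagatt
Gbp7, chr3:142530258-142530317, plus strand: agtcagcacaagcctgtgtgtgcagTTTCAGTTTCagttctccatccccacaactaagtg
Tgtp1, chr11:48992289-48992348, minus strand: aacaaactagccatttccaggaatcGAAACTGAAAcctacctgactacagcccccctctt
Igtp, chr11:58199497-58199556, plus strand: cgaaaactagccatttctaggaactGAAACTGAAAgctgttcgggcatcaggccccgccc
A match is a run of letters in this window and not a measured binding site. Gbp5 and Gbp7 were below both references in every library with Rh2. Tgtp1 and Igtp, chosen for their windows after the values were seen, followed the Dox library. Igtp measured 17.4, 16.4 and 19.8 CPM in Control, Rh2-20 and Rh2-30 and 147, 24.5 and 17.3 CPM in Dox, Rh2-20+Dox and Rh2-30+Dox (-1.63, adjusted p = 0.569), so that without doxorubicin its Rh2 libraries lay on both sides of Control.

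Most glucocorticoid target genes were higher with Rh2 in both doxorubicin states. Of 15 tested members 10 were higher at p under 0.05 (4.09% of all genes) and none lower. In all 4 pairs 11 were higher (16% of all genes) and none lower, and the remaining members were mixed. All libraries with Rh2 lay above both without for 4 members (9.87%). The median log2 fold change was 0.49, with 0.33 without doxorubicin and 0.64 with it. Beside Ddit4, Errfi1, a feedback inhibitor of the EGF receptor, measured 35.0, 64.7 and 82.4 CPM in Control, Rh2-20 and Rh2-30 and 33.8, 48.4 and 48.2 CPM in Dox, Rh2-20+Dox and Rh2-30+Dox (0.78, 0.37 to 1.20, adjusted p = 0.567). Tsc22d3, the glucocorticoid-induced leucine zipper, measured 35.7 and 43.9 CPM without Rh2 and 46.3 to 57.5 with it (0.43, 0.17 to 0.68, adjusted p = 0.567). These genes had all libraries with Rh2 above both without.

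Map3k6 measured 31.6, 47.9 and 47.6 CPM in the libraries without doxorubicin and 58.7, 77.7 and 116 CPM in those with it (0.66), so its groups overlapped across doxorubicin states while each pair went the same way. Fkbp5, the co-chaperone of the glucocorticoid receptor, was chosen after its values were seen. It measured 20.8, 35.2 and 51.6 CPM in Control, Rh2-20 and Rh2-30 and 51.6, 65.3 and 112 CPM in Dox, Rh2-20+Dox and Rh2-30+Dox (0.92, 0.25 to 1.59, adjusted p = 0.567). Both the doxorubicin library and the higher dose stood above their counterparts for this gene. Klf9, a Krüppel-like factor also chosen after its values were seen, had a log2 fold change of 0.37.

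Without a doxorubicin term 4 of the 15 members were higher at p under 0.05, and without the Rh2-20 library 6 were. The core of the glucocorticoid element was searched as ACANNNTGT, which is its own reverse complement, a motif added after the values were seen. It was in 5.56% of the 12805 promoters and in 4 of 13 matched members of the list (30.8%). Among the matched members higher at p under 0.05 it was in 3 of 10 (30%). The list was drawn up as receptor targets, so these shares describe the list and not a response to Rh2. The windows of Map3k6, Sgk1 and Lcn2 are shown because these were the 3 members higher at p under 0.05 that held a match, and Sgk1 and Lcn2 were chosen for this after their values were seen. Sgk1, a kinase that regulates ion channels, measured 95.8 and 65.1 CPM without Rh2 and 86.4 to 105 with it (0.31).
Map3k6, chr4:133240614-133240672, plus strand: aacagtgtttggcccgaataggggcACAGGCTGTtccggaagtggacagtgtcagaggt
Sgk1, chr10:21978520-21978578, plus strand: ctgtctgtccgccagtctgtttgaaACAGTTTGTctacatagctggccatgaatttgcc
Lcn2, chr2:32387858-32387916, minus strand: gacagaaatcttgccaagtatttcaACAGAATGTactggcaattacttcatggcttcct

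Across all 18328 genes the Rh2 differences in the 2 doxorubicin states, which share no library, had a Spearman rho of 0.13 and a Pearson r of -0.02 and the same sign in 57.4% of genes. In the 6389 genes with a mean count of at least 2000 the rho was 0.37, the Pearson r was -0.009 and the same sign was seen in 62.8%. These values run across genes, which are not independent replicates, and depth and library composition are shared within a state. In the fit with an interaction, edgeR called no gene without doxorubicin (679 at an unadjusted p under 0.05, DESeq2 24) and none with it (954, DESeq2 105). At p under 0.05 in both states with the same sign there were 136 genes.

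**Figure D4:**
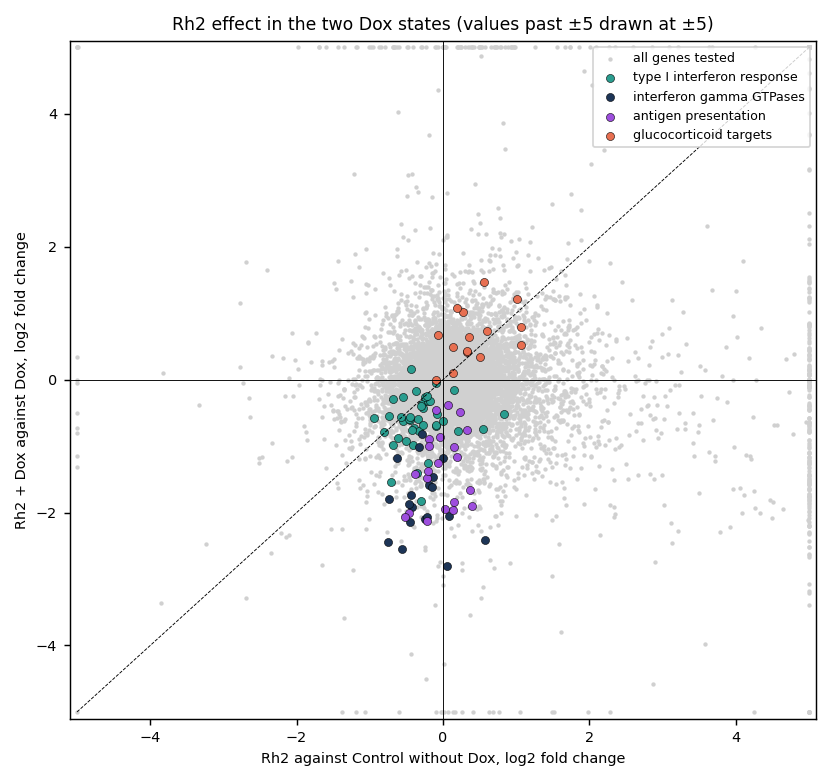
Log2 fold change of Rh2 against Control (x axis) and of Rh2 + Dox against Dox (y axis) for the 18328 genes tested (grey) and the members of 4 lists (coloured), with the diagonal dashed and values past 5 on either side drawn at the edge. Most glucocorticoid targets lie in the upper right quadrant and most type I interferon genes in the lower left, and all 19 GTPase and 21 antigen presentation members lie below the diagonal.

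Stress and survival genes were mixed. Of 20 p53 targets 4 were higher and 1 was lower at p under 0.05 (4.09% and 4.65% of all genes). In all 4 pairs 9 were higher (16% of all genes), and the 4 pair medians lay between 0.16 and 0.21. Cdkn1a (p21), the cyclin-dependent kinase inhibitor, measured 2.76, 4.79 and 5.90 CPM in Control, Rh2-20 and Rh2-30 and 4.38, 7.43 and 8.66 CPM in Dox, Rh2-20+Dox and Rh2-30+Dox. All of its libraries with Rh2 lay above both without, and its Rh2 difference was about the same in both states (0.95 and 0.88; pooled 0.91, 0.53 to 1.30, adjusted p = 0.567). Fas (0.31) and Ei24 (0.27) were higher and Plk3 (-0.50) was lower. Bcl2l1, which encodes the survival protein Bcl-xL, measured 50.8 and 69.6 CPM without Rh2 and 80.0 to 106 with it (0.58, adjusted p = 0.567). Mlkl, the executioner of necroptosis, measured 17.4 and 15.8 CPM without Rh2 and 9.70 to 13.7 with it (-0.47, adjusted p = 0.567). Of the immediate early genes Myc (0.61, adjusted p = 0.567) and Zfp36 (0.33) were higher at p under 0.05 and Nr4a3 (-0.58) was lower. That is 3 of 19 in all, beside 4.09% higher and 4.65% lower over all genes. Of the 24 members of the apoptosis and necroptosis list 2 were higher and 3 lower at p under 0.05 (4.09% and 4.65% of all genes).

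Of 28 genes of fatty acid oxidation and PPAR targets 4 were higher at p under 0.05 (all genes tested, 4.09%) and none lower. In all 4 pairs 10 were higher (all genes tested, 16%). The 4 at p under 0.05 were Cpt2 (0.37), which admits acyl groups to mitochondria, the lipid droplet protein Plin5 (0.49), the triglyceride synthase Dgat2 (0.51) and the thioesterase Acot1 (0.50). The list's median was 0.22 for Rh2-20 and -0.02 for Rh2-30 against Control, and 0.22 for Rh2-20+Dox and 0.70 for Rh2-30+Dox against Dox, so the doses did not follow one order. The respiratory chain list had 10 of 30 members higher in all 4 pairs (16% of all genes) and none at p under 0.05. Of 26 ribosomal protein genes 19 were higher in all 4 pairs (16% of all genes) and none lower. Of these genes 3 were higher at p under 0.05 (Rpl8, Rpl5 and Rpl14, at 0.22 to 0.23), beside 4.09% of all genes, and the list's median was 0.18. Genes of short effective length were higher with Rh2 in general, with a Spearman rho of -0.24 between the Rh2 difference and length across 12833 coding genes with a mean count of at least 100 and -0.21 to -0.14 in the single pairs. Ribosomal protein transcripts are short, and the part of length in their values was not tested.

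Of 19 clock genes 4 were lower at p under 0.05 and none higher, beside 4.65% lower over all genes tested. The smallest p was that of Per3, at 196 and 218 CPM without Rh2 and 152 to 169 with it (-0.36, adjusted p = 0.567), followed by Npas2 (-0.40), the repressor Nr1d1 (-0.27) and Bhlhe41 (-0.30). Small nuclear RNA genes, a class looked at after the lists, were lower as well. Of 41 tested 21 were lower at p under 0.05 (4.65% of all genes) and none higher, and 30 were lower in all 4 pairs (16.2% of all genes). Rnu1a1, a U1 RNA gene, measured 54.0 and 52.4 CPM without Rh2 and 35.3 to 40.5 with it (-0.45, adjusted p = 0.567). Of the 41 genes 27 carry a LOC name, and copies of one snRNA share sequence, so they are not separate measurements.

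The Toll-like receptors and cytokines named by the study had wide intervals. Tlr7 was the one receptor at p under 0.05, with 6.71, 13.2 and 15.4 CPM in Control, Rh2-20 and Rh2-30 and 7.64, 12.7 and 7.55 CPM in Dox, Rh2-20+Dox and Rh2-30+Dox (0.74, 0.07 to 1.41, adjusted p = 0.568). Rh2-30+Dox did not exceed Dox, and the same held for Tlr5 (0.74), Tlr8 (0.67) and Tlr13 (0.69), which were above Control in both libraries of the other state. Macrophage markers were also above Control in both Rh2 libraries and below Dox in Rh2-30+Dox, at 397, 525 and 610 CPM without doxorubicin and 358, 496 and 338 CPM with it, and their part in the receptor values was not tested. Tlr1 (-0.05), Tlr2 (-0.09), Tlr6 (-0.09) and Tlr11 (0.10) had intervals that spanned 0, as did Il1a (0.18), Il18 (0.23) and Tnf (-0.68, -1.44 to 0.08). Tnf was lower in all 4 pairs, at 1.09 CPM in Control and 0.464 in Dox against 0.368 to 0.555 with Rh2.

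Genes of neutrophils and their granules were highest at 20 mg/kg in both doxorubicin states. Mmp8, the neutrophil collagenase, measured 0.348, 1.09 and 0.538 CPM in Control, Rh2-20 and Rh2-30 and 0.5, 2.99 and 1.92 CPM in Dox, Rh2-20+Dox and Rh2-30+Dox (1.75, adjusted p = 0.567). Mmp8 overlaps Gm31751. Stfa2l1, a stefin A protease inhibitor of a multicopy family, had a log2 fold change of 2.27 and S100a9, a calprotectin subunit, one of 1.36. The 10 neutrophil markers, none of them at 0 in all libraries, summed to 16.2 and 18.5 CPM without Rh2 and to 19.9 to 45.3 with it, highest in Rh2-20+Dox. Of the 7 that passed the filter 1 was higher at p under 0.05 (4.09% of all genes) and none lower. The part of neutrophil number was not tested. Among metalloproteinases and inhibitors, 22 tested, Timp4 was also higher, at 9.97, 23.6 and 15.2 CPM without doxorubicin and 18.5, 28.4 and 56.4 CPM with it (1.08, adjusted p = 0.567).

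Lists of the sarcomere, collagen and matrix, complement, chemokines, glucose use, lipogenesis and cardiac stress genes had no member at p under 0.05 in either direction. Their medians in the fit lay between -0.02 and 0.32, and several changed sign between pairs. Collagen and matrix genes had a median of 0.42 for Rh2-30 against Control and -0.54 for Rh2-30+Dox against Dox.

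**Figure D5:**
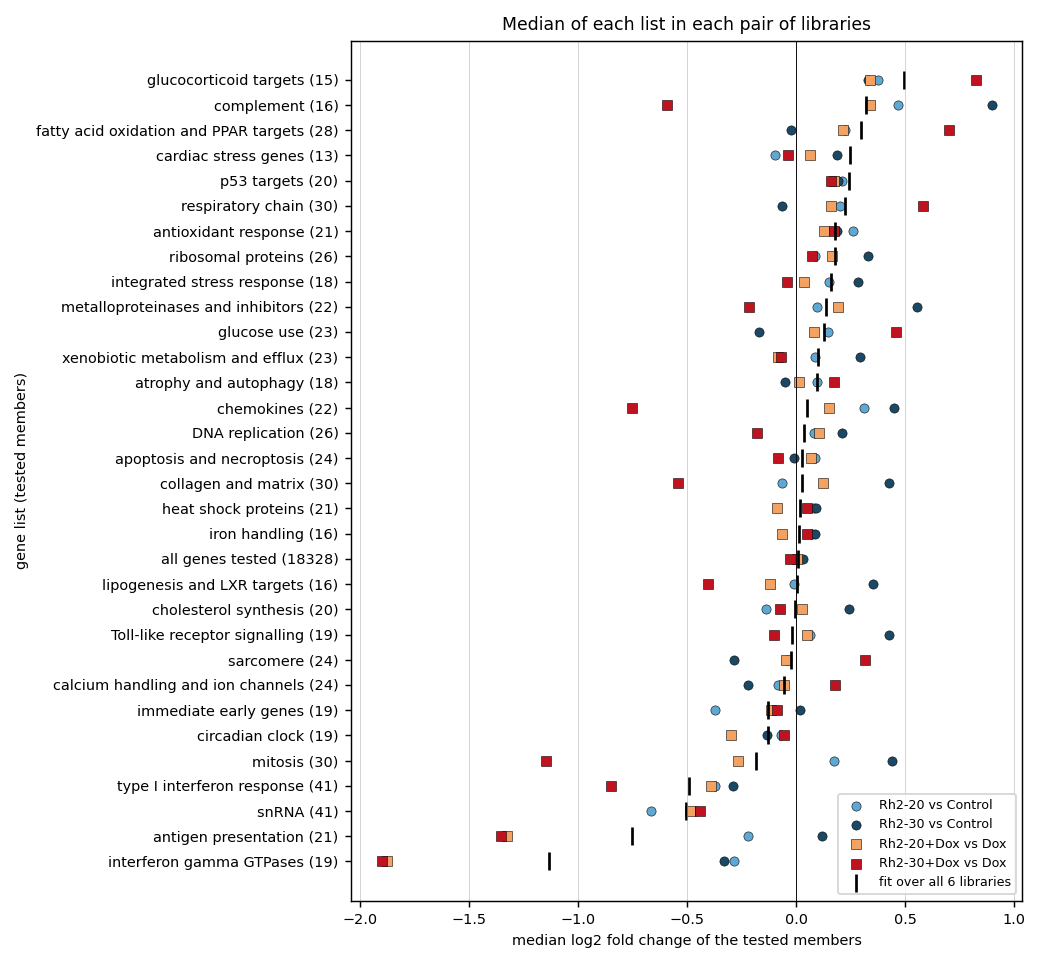
Median log2 fold change of the tested members (x axis) of 30 pathway lists, the small nuclear RNA genes and all genes tested (y axis, number of tested members in brackets), by pair of libraries (circles without doxorubicin, squares with it) and in the fit over all 6 libraries (bar). The type I interferon, GTPase and circadian clock lists and the small nuclear RNAs have all 4 points below 0, and glucocorticoid targets, p53 targets, the antioxidant response and ribosomal proteins have all 4 above 0.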

How the data were processed

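Heart RNA libraries were prepared with the SureSelectXT RNA Direct kit. Per the labels, the submitters' processing notes name bcl2fastq 2.20.0, Trimmomatic, HISAT2 2.1.0 and StringTie 2.1.3b with the mm10 build. The authors deposited whole-number read counts per gene, which were not normalized, and these were the basis of all tests. The deposited FPKM values, scaled by the authors to length and depth, served as an alternative and for effective length (counts divided by FPKM). The deposited TPM values were not used for any comparison. Which sample each column holds was taken from the label it carries.

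Genes with a mean count of 10 or more were fitted in R 4.3.3 with edgeR 4.0.16 (TMM, glmQLFit and glmQLFTest, two-sided, Benjamini-Hochberg over all genes tested) with doxorubicin and Rh2 as terms, leaving 3 residual degrees of freedom, and with their interaction, leaving 2. DESeq2 1.42.0 and limma 3.58.1 were alternatives, as were other scaling, filters, FPKM pseudocounts, a dose term, no doxorubicin term and each library left out. Pair differences used a prior count of 0.5. The total of 86164411 to 90621002 counts per library limits counting error. Each condition was sequenced as 1 library, so p-values measure the spread between these 6 libraries only.

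The members, 30 pathway lists and 24 marker lists were chosen with earlier results of these data known. The genes named were up to 12 per direction with an adjusted p under 0.05, filled with genes past the study's cut-offs by smallest p (mean count of at least 50, same direction in all 4 pairs, no predicted genes), up to 4 members per list by smallest p, and the Toll-like receptors, cytokines and p21 that the study names. No gene passed the adjustment, so all 24 were filled in, and no gene was named from the interaction. Genes outside the rule are named as chosen after their values were seen. Motif searches had been planned for lists with members past the adjusted threshold. There were none, so E-box, heat shock and sterol elements were not searched, while the ISRE was searched in the interferon lists all the same and a glucocorticoid element was added after the values were seen. The fits were tested before use on simulated libraries with no dose difference and no interaction. Their spread was set below the common dispersion of 0.0708 fitted here, so that test does not cover the spread of these data. Figures used matplotlib 3.10.9 in Python 3.11.15. RefSeq supplied promoters and gene positions, both for GRCm38.p6, which mm10 is built on. A gene of the type I interferon list is counted with its list but not reported here.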

Additional observations from a re-analysis of the deposited data

Results flagged for a closer look

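A sample far from the others was sought among the 4 libraries with Rh2 for each named gene, by the gap of the highest or lowest library over the whole range against Dixon's 95% critical value. Chance flags about 1 in 20 groups. Rh2-30+Dox stood alone for Ddit4 (20.3 CPM against 17.5 to 18.0), Gbp5 (23.5 CPM against 27.2 to 27.4), Nr1d1 (134 CPM against 115 to 116) and Klf9 (43.0 CPM against 33.8 to 35.0). Rh2-20+Dox stood alone for H2-Bl at 21.4 CPM against 19.9 to 20.1 and for Zfp36 at 22.6 CPM against 29.5 to 30.1, and Rh2-30 for Rpl14 at 177 CPM against 152 to 155.

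Effects of opposite sign in both libraries of each doxorubicin state were seen for Tlr1, Tlr2 and Tlr11. Tlr1 had 0.39 without doxorubicin and -0.45 with it, an interaction of -0.84 on the log2 scale with an adjusted p of 0.988. Tlr2 had 0.43 and -0.55, an interaction of -0.99 with adjusted p = 0.988. Tlr11 had 0.81 and -0.58, an interaction of -1.39 with adjusted p = 0.988. None of these interactions passed the threshold in edgeR's test.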

How the results depend on the processing

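Libraries were matched by doxorubicin state through the blocking term. Replicates could not be paired across conditions, because no condition has a second library and the labels give no replicate numbers. The 16 alternatives gave 0 genes at an adjusted p under 0.05 except DESeq2's Wald test, which called 247 for Rh2, 38 for the interaction, 24 without doxorubicin and 105 with it. Genes past the study's cut-offs numbered 268 with no filter, 73 at a mean count of 50 or more, 18 on log2(FPKM + 1) and 89 on log2(FPKM + 0.1), and 131 to 318 with a library left out. Type I interferon members lower at p under 0.05 numbered 15 with library totals, 15 and 14 on FPKM plus 1 and plus 0.1, and 7 to 26 with a library left out. GTPase members numbered 5 to 18 with a library left out. Antigen presentation members numbered 14 in DESeq2, 4 on log2(FPKM + 1), 5 with dose as a number, and 2 to 20 with a library left out. Glucocorticoid members numbered 4 without a doxorubicin term and 3 to 10 with a library left out.

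Of the log2 fold changes of 97 named genes under the alternatives, 1528 of 1548 kept their sign, and those past the adjusted threshold (45) were all from DESeq2. Tlr1 was 0.028 with library totals and 0.017 on log2(FPKM + 1), Tlr2 was 0.0086 on log2(FPKM + 1), and Il1a was -0.40 with dose as a number. Ifnar1 was 0.17 and 0.20 on log2(FPKM + 1) and log2(FPKM + 0.1). With a library left out, Tlr1 ranged over -0.45 to 0.39, Tlr2 over -0.55 to 0.43, Tlr6 over -0.22 to 0.016, Tlr11 over -0.58 to 0.81, Il1a over -0.68 to 1.25, Il18 over -0.074 to 0.56 and Igtp over -2.81 to 0.055, where Igtp changed sign without the Dox library alone. Without Control or Dox the libraries with Rh2 of that state have no reference, so the fit gives the Rh2 difference of the other state. The range ends for Tlr1, Tlr2, Tlr11 and Igtp are those values of the 2 doxorubicin states. The cause of the other changes was not tested.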

Other observations

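The Ifi200 family of DNA sensors, clustered on chromosome 1, divided under Rh2. This family was looked at after its values were seen, and its members share sequence, so that reads can be split between them. Of 13 tested members 4 were higher in all 4 pairs, 7 were lower in all 4 pairs and 2 were mixed, against 16% and 16.2% of all genes. Ifi205 (1.0), Ifi207 (0.77), Ifi211 (0.46) and Ifi204 (0.34) were higher at an unadjusted p under 0.05. Ifi207 measured 70.6, 125 and 112 CPM in Control, Rh2-20 and Rh2-30 and 82.6, 146 and 140 CPM in Dox, Rh2-20+Dox and Rh2-30+Dox. Ifi208 (-0.60), Mndal (-0.42), Aim2 (-0.40), Ifi203 (-0.35) and Ifi213 (-1.05) were lower at the same threshold. Aim2, the inflammasome sensor of DNA, measured 10.8 and 10.1 CPM without Rh2 and 7.52 to 8.23 CPM with it. For all 9 of these members the libraries with Rh2 did not overlap those without (9.87% of all genes above and 9.08% below).

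Further single genes chosen after their values were seen had groups without overlap. Depp1, a FOXO-regulated protein, measured 32.0 and 28.5 CPM without Rh2 and 50.2 to 62.4 with it (0.86, adjusted p = 0.381). Lrg1, an acute-phase glycoprotein, measured 4.33 and 4.59 CPM without and 6.85 to 8.64 with it (0.81). Nfkbia, the inhibitor of NF-kappaB, measured 47.4 and 35.2 CPM without and 56.7 to 62.7 with it (0.55). Prdm1, the repressor Blimp-1, measured 10.1 and 9.07 CPM without and 4.52 to 5.93 with it (-0.88).

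Of 26776 genes with a count in at least 1 library, 10 had no count in Control and Dox and at least 10 counts in each library with Rh2. The reverse was seen for 1 gene. It asks for no count in 4 libraries instead of 2, so the 10 and the 1 cannot be compared. Among the 10, which were picked for these counts and not tested, Tnfsf11, the RANK ligand, had 11 to 26 counts with Rh2, and Entpd3 had 13 to 72. The widest was Gm17197, a long noncoding RNA with 60 to 134 counts, at least 18.3-fold higher in each pair when 3 counts are allowed in the reference library.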
